A study of Arabidopsis thaliana with 4 samples.

Results

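The 10 genes described here encode late embryogenesis abundant (LEA) proteins, dehydrins and galactinol synthases of Arabidopsis thaliana. They were taken by locus code from the 33602 genes of the deposited table, and all 10 were found there. They are LEA7 (AT1G52690), LEA4-5 (AT5G06760), LEA4-1 (AT1G32560), the dehydrins COR47 (AT1G20440), ERD10 (AT1G20450), ERD14 (AT1G76180) and LTI30 (AT3G50970), and the galactinol synthases GolS1 (AT2G47180), GolS2 (AT1G56600) and GolS3 (AT1G09350). The set was chosen by measured values, namely the low levels of LEA7, LEA4-5 and GolS2 after 2 h on narciclasine relative to the 2 h control, so that comparison is given as a description. Wild-type Col-0 seedlings, 5 days old, spent 2 or 12 h on plates with 0.5 µM narciclasine or without it, and RNA was taken from root tips of 3 mm. Narciclasine is a plant alkaloid that stops protein synthesis at the ribosome. Each of the 4 groups (control 2 h, narciclasine 2 h, control 12 h and narciclasine 12 h) was 1 library. No difference below therefore has a replicate check, no p-value is given, and every statement is about these libraries.

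LEA proteins are small, very hydrophilic and largely unfolded in solution. They accumulate in maturing seeds and in vegetative tissue that loses water, where they protect enzymes and membranes. Dehydrins are a LEA family that carries lysine-rich segments which bind membranes. Galactinol synthases join UDP-galactose and myo-inositol to galactinol, the first step towards raffinose and related sugars that act as osmoprotectants. Many genes of these families respond to abscisic acid, to cold through DREB1/CBF factors, or to heat through heat shock factors.

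Library sizes ran from 11880278 to 14724075 reads. Levels are given as deposited, in RPKM (reads scaled to gene length and library size), with the reads behind them. Ratios compare reads scaled by the trimmed mean of M values (TMM), and the range after a ratio is a 95% interval for the error of counting alone. A gene was called higher or lower when the ratio was at least 2-fold and the interval excluded 1, among 19377 genes with at least 1 CPM (reads scaled to library size) in 1 library. All 10 genes passed that filter, LEA4-1 only through narciclasine 12 h and GolS2 only through control 2 h. All 5 root meristem markers and all 4 root cap markers had reads in every library. Of 6 seed and embryo markers between 3 and 6 were at 0 in each library, and their summed level stayed between 0 and 1.83 RPKM. In control 2 h, narciclasine 2 h, control 12 h and narciclasine 12 h the root meristem markers summed to 79.6, 88.5, 44.6 and 46.1 RPKM and the root cap markers to 48.5, 39.1, 34.2 and 27.3. Shoot photosynthesis markers summed to 34.3, 22.9, 83.1 and 21.3 RPKM, highest in control 12 h. The part of these differences in the results below was not tested. In these bulk samples, fewer cells of a type and less RNA per cell cannot be told apart.

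Across the set, levels per kilobase spanned more than 4 orders of magnitude, with the dehydrins far above the LEA and galactinol synthase genes. COR47 ranked 3 by RPKM among all genes in both 2 h libraries, 5 in control 12 h and 11 in narciclasine 12 h. The summed level of the 4 dehydrins was 6574 RPKM in control 2 h, 5574 in narciclasine 2 h, 5011 in control 12 h and 3631 in narciclasine 12 h. These sums were 0.908%, 0.788%, 0.696% and 0.516% of the RPKM of all genes. The 3 LEA genes together held 195.8, 30.7, 47.8 and 18.9 RPKM in the same order, and the 3 galactinol synthases 18.8, 10.04, 6.42 and 4.995. For each of these groups control 2 h was the highest library and narciclasine 12 h the lowest.

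**Figure D1:**
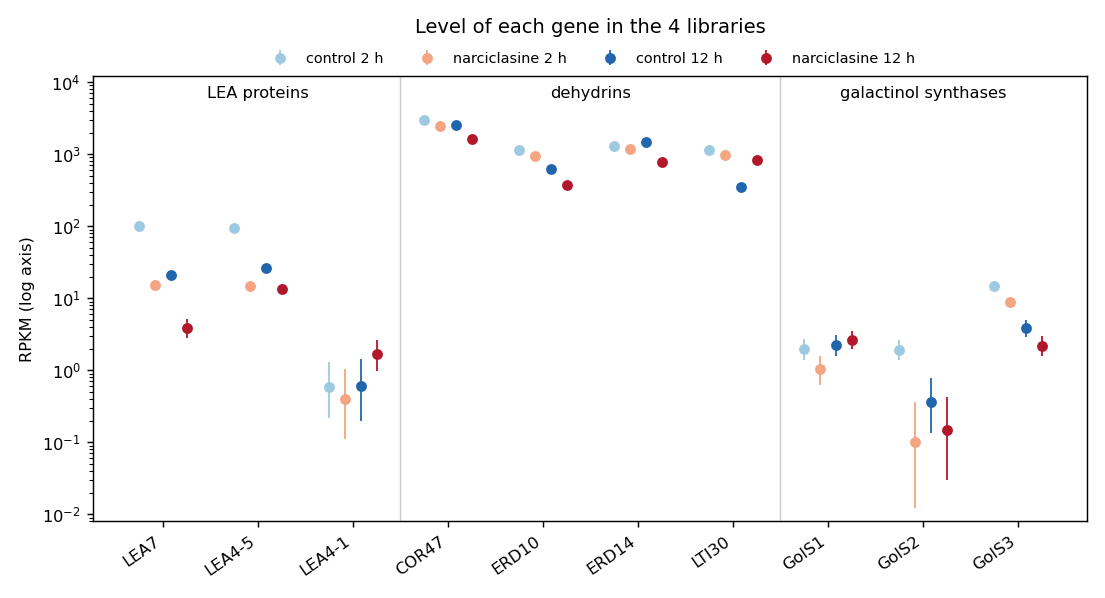
Level of each gene in each library, in RPKM on a log axis, with 1 point per library and a bar for the exact 95% counting interval. COR47 stands between 1629 and 2963 RPKM, while GolS2 stays below 2 RPKM in every library.

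The 300 bases before the annotated starts of 6 of the genes are shown because these genes gave the clearest contrasts in level or motif content. They were read from the TAIR10.1 assembly, 5′ to 3′ on the strand of the gene. Capitals mark the abscisic acid response element core ACGTG, the dehydration response element core CCGAC, and a heat shock element of 3 alternating units (TTC, GAA, TTC, with any 2 bases between units), each searched on both strands. Overlapping matches of 1 motif were joined, so that a CACGTG counts as 1 site.
LEA7 (chr1:19619424-19619723, plus strand): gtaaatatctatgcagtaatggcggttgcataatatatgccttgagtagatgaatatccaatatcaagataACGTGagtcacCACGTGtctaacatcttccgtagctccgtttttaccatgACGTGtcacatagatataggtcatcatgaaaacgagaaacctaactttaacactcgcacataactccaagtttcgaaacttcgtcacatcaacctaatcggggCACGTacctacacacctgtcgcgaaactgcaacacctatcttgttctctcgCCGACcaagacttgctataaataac
LEA4-5 (chr5:2090431-2090730, minus strand): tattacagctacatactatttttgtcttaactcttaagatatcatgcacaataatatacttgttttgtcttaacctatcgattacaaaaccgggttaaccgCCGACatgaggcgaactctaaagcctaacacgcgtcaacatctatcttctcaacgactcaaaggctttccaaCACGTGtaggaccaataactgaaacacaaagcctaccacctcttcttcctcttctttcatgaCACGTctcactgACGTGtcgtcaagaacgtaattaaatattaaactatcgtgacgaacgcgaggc
LEA4-1 (chr1:11774184-11774483, plus strand): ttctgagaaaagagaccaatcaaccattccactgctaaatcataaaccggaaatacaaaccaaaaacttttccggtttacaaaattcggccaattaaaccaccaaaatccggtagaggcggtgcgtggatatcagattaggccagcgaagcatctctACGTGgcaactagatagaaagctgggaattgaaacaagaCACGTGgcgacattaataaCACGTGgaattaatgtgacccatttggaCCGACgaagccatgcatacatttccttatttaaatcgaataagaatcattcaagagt
LTI30 (chr3:18940343-18940642, plus strand): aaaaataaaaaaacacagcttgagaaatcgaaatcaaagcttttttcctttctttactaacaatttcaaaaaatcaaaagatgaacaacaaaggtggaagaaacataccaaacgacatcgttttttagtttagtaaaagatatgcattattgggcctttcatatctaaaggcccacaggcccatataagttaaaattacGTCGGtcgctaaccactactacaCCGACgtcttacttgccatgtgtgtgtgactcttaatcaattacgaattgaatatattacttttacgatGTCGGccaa
GolS1 (chr2:19370479-19370778, minus strand): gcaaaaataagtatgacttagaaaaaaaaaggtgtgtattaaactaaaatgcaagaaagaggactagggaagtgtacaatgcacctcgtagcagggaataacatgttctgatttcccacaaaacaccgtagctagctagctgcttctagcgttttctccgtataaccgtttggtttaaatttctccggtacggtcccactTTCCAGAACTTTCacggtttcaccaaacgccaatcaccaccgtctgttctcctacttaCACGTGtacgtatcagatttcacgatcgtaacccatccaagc
GolS2 (chr1:21207237-21207536, plus strand): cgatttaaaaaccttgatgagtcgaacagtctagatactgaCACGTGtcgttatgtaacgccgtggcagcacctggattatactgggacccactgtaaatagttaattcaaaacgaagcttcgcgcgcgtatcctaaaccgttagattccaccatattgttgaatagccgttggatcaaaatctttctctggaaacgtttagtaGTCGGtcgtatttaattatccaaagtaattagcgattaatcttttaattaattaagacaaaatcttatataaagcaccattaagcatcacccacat

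LEA7 held 4 sites with the ACGTG core, and LEA4-5 and LEA4-1 held 3 each, although their levels differed widely. At least 3 such sites occurred in 1.32% of the same windows of 27443 protein-coding genes, and at least 1 in 25.6%. In the set, 7 of 10 genes had the core, and COR47, ERD10 and LTI30 did not. The CCGAC core was in 6 of 10 genes against 13.9% of all windows, and LTI30 alone had 3 sites, which 0.262% of all windows had. Only GolS1 held the heat shock element (0.485% of all windows), with its first base 100 bases before the start. A match describes letters in this window and is no evidence of binding. The annotated transcript was longer than the length behind the RPKM for COR47 (2320 against 1219 bases), LTI30 (969 against 778) and LEA4-1 (859 against 696). Smaller gaps were found for LEA4-5 (903 against 856), GolS1 (1392 against 1355) and GolS2 (1435 against 1396). These windows may lie away from the starts the authors used, which bears on their site counts.

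**Figure D2:**
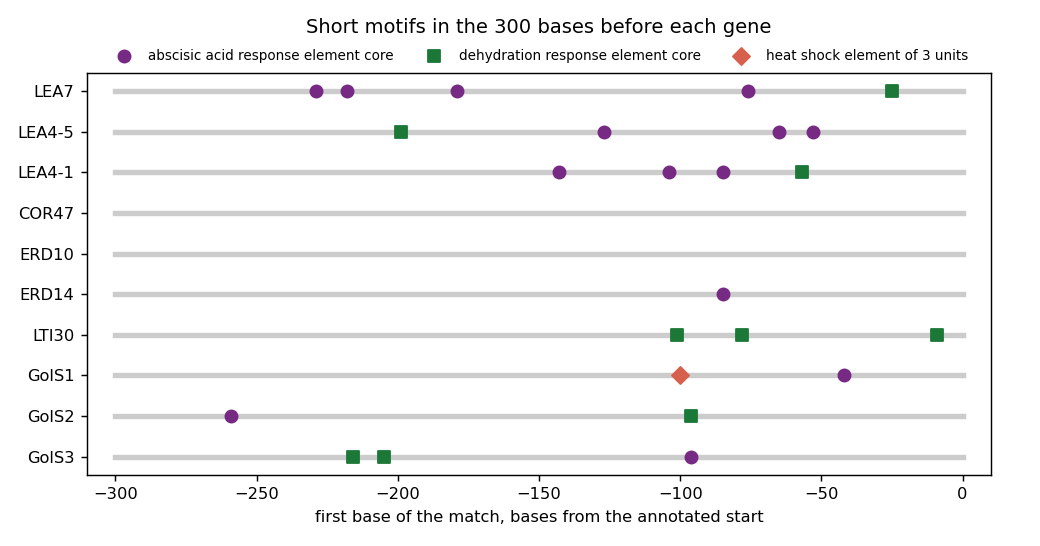
First base of each motif match in the 300 bases before the annotated start of each gene, with distance from the start in bases on the x axis. The LEA7, LEA4-5 and LEA4-1 windows each hold at least 3 abscisic acid response element cores, and the COR47 and ERD10 windows hold none of the 3 motifs.

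LEA7, a LEA protein of the group with repeated 11-residue motifs, had 101.6 RPKM in control 2 h, 15.4 in narciclasine 2 h, 20.7 in control 12 h and 3.82 in narciclasine 12 h (1235, 183, 206 and 47 reads). Control 2 h stood far above the other libraries, and at each time the narciclasine library was below its control. The 12 h comparison uses none of the libraries of the 2 h comparison. In it LEA7 was again lower, 5.61-fold (4.07 to 7.88), against 6.78-fold (5.80 to 7.97) at 2 h. The 12 h ratio was 1.21 times the 2 h ratio, with an interval of 0.849 to 1.72 that includes 1, and the 2 h ratio was likewise used in the choice. Control 12 h was itself 4.77-fold lower than control 2 h (4.11 to 5.55), and narciclasine 2 h was 1.42-fold lower than control 12 h (1.16 to 1.75). LEA7 overlaps AT1G52695 on the opposite strand over 297 bases, and that gene was listed at 0 in all 4 libraries.

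LEA4-5, a group 4 LEA protein linked to tolerance of water deficit, had 93.6 RPKM in control 2 h, 14.9 in narciclasine 2 h, 26.5 in control 12 h and 13.4 in narciclasine 12 h (1165, 182, 269 and 169 reads). Both narciclasine libraries were close to each other, at 1.092-fold lower in the later one (0.881 to 1.35), while the controls differed 3.44-fold (3.01 to 3.95). At 12 h LEA4-5 was 2.04-fold lower than its control (1.68 to 2.49), against 6.43-fold (5.50 to 7.56) at 2 h. The 12 h ratio was 3.16 times the 2 h ratio (2.46 to 4.04), a description, since the 2 h ratio was among the values that chose the gene. The 12 h call was at the edge of the threshold and was lost with 3 of the other scalings, with log2 ratios of -0.98 to -0.99.

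LEA4-1, of the same LEA group as LEA4-5, was barely detected, at 0.593, 0.403 and 0.605 RPKM in control 2 h, narciclasine 2 h and control 12 h and 1.66 in narciclasine 12 h (6, 4, 5 and 17 reads). It was highest in narciclasine 12 h, where its ratio to control 12 h was 2.65 with an interval of 0.940 to 9.20 that includes 1. Against narciclasine 2 h it was 4.19-fold higher (1.37 to 17.1), in the only library that carried it past the filter.

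**Figure D3:**
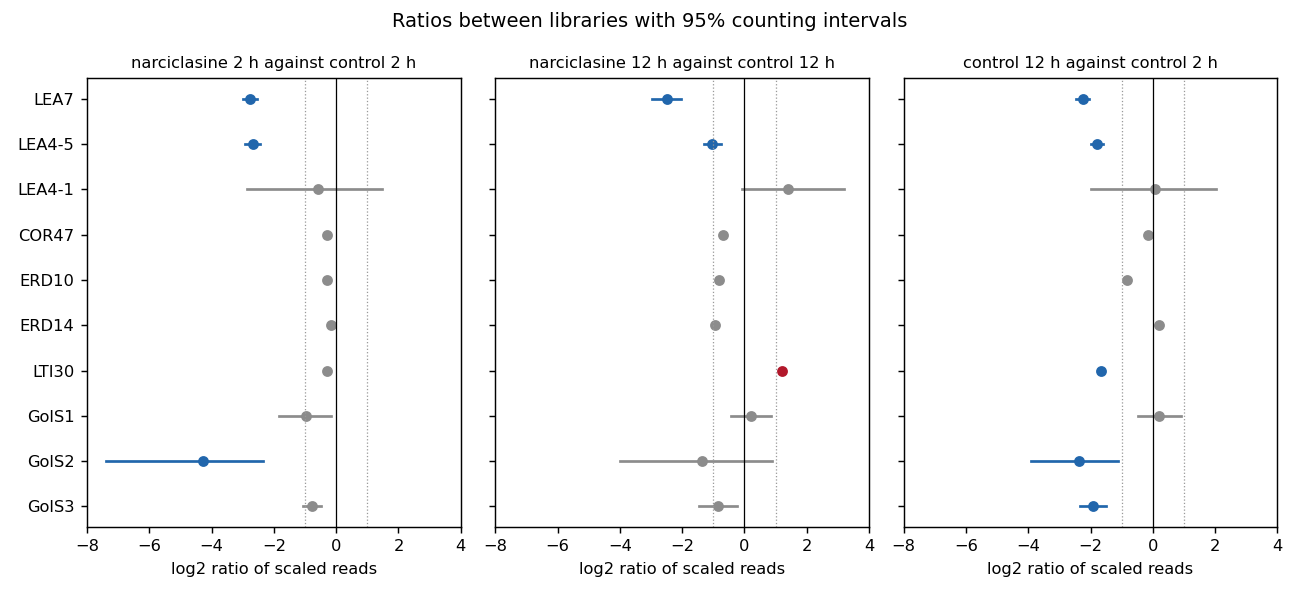
Log2 ratios of scaled reads with exact 95% counting intervals, for narciclasine against control at 2 h and at 12 h and for control 12 h against control 2 h. Blue genes were called lower, red genes higher and grey genes neither, with 2-fold at the dotted lines. LTI30 is the red gene, at a log2 ratio of 1.21 at 12 h.

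The acidic dehydrins COR47, ERD10 and ERD14 lay below control by less than 2-fold at both times, and by more at 12 h than at 2 h. COR47, a cold-regulated dehydrin, had 2963 RPKM in control 2 h, 2457 in narciclasine 2 h, 2568 in control 12 h and 1629 in narciclasine 12 h (52515, 42669, 37197 and 29236 reads). Its narciclasine 12 h library was the lowest, 1.63-fold below its control (1.61 to 1.66). ERD10, which protects other proteins from aggregation in vitro, had 1153, 954, 630.5 and 368.8 RPKM in the same order. Both 12 h libraries lay below both 2 h libraries, and narciclasine 12 h was 1.77-fold below its control (1.72 to 1.82). ERD14, a close relative with calcium-binding activity, had 1301, 1191, 1461 and 790.6 RPKM, and was 1.91-fold below its control at 12 h (1.87 to 1.96). At 2 h the ratios of the 3 genes to control were between 0.807 and 0.892. None of the 3 met the 2-fold rule against its own control, and all 3 passed 1.5-fold at 12 h. ERD10 was 2.54-fold lower in narciclasine 12 h than in narciclasine 2 h (2.47 to 2.603).

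LTI30, a basic, cold-induced dehydrin that binds membrane lipids, had 1157 RPKM in control 2 h, 972 in narciclasine 2 h, 352 in control 12 h and 843 in narciclasine 12 h (13086, 10771, 3252 and 9656 reads). The control 12 h library was low and the other libraries lay close together. Narciclasine 12 h was 2.32-fold above control 12 h (2.23 to 2.41), whereas narciclasine 2 h was 1.22-fold below control 2 h (1.19 to 1.25). The 12 h ratio was 2.83 times the 2 h ratio (2.70 to 2.97). The direction at 12 h rests on the control 12 h library, since against control 2 h narciclasine 12 h was 1.38-fold lower (1.35 to 1.42). LTI30 shared 0.426% of its 31-base runs with another place in its own sequence or in the genome, and the other 9 genes shared none.

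GolS1, a galactinol synthase induced by heat and drought, had 1.98 RPKM in control 2 h, 1.04 in narciclasine 2 h, 2.24 in control 12 h and 2.66 in narciclasine 12 h (39, 20, 36 and 53 reads). Narciclasine 2 h was the lowest library, 1.96-fold below its control (1.12 to 3.55), just short of the threshold. At 12 h the ratio to control was 1.15 (0.739 to 1.81). Narciclasine 12 h was 2.61-fold above narciclasine 2 h (1.54 to 4.62). GolS1 overlaps AT2G47170 over 43 bases on the opposite strand. That gene stood at 331, 237.8, 283 and 147.6 RPKM in the same library order, and its part in the GolS1 reads was not tested.

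GolS2, the galactinol synthase tied to drought tolerance, had 1.92 RPKM in control 2 h, 0.101 in narciclasine 2 h, 0.362 in control 12 h and 0.146 in narciclasine 12 h (39, 2, 6 and 3 reads). Only control 2 h held more than 6 reads. At 2 h the ratio was 19.6-fold lower with a wide interval (5.07 to 167.5). At 12 h the ratio of 0.390 had an interval of 0.0632 to 1.83, so a difference was not detectable at this depth. Control 12 h was 5.17-fold lower than control 2 h (2.17 to 14.9).

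GolS3, the cold-induced galactinol synthase, had 14.9 RPKM in control 2 h, 8.90 in narciclasine 2 h, 3.82 in control 12 h and 2.19 in narciclasine 12 h (281, 165, 59 and 42 reads). It was the most abundant of the 3 except in narciclasine 12 h, where GolS1 had 2.66 RPKM. The GolS3 level was lower at 12 h than at 2 h in control (3.79-fold, 2.85 to 5.11) and with narciclasine (3.98-fold, 2.82 to 5.73). The narciclasine library was 1.71-fold (1.41 to 2.09) below its control at 2 h and 1.80-fold (1.19 to 2.74) at 12 h.

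By the call rule, 3 of the 10 genes were lower at 2 h (LEA7, LEA4-5 and GolS2), beside 2.06% of all genes. None was higher, beside 4.74% of all genes. These counts follow from the choice of the set. At 12 h 2 of 10 were lower (LEA7 and LEA4-5), beside 16.5% of all genes, and 1 was higher (LTI30), beside 11.6%, shares near the background. The median log2 ratio of the 10 genes was -0.68 at 2 h and -0.83 at 12 h, against 0.00 and -0.04 for all genes compared. The 2 h median includes the 3 genes chosen for low values at 2 h and is a description. Between the untreated libraries 5 of 10 were lower at 12 h (LEA7, LEA4-5, LTI30, GolS2 and GolS3), beside 1.68% of all genes, and none was higher (4.34%). This comparison shares control 2 h with the one that chose the set for LEA7, LEA4-5 and GolS2. GolS2 also passed the filter only through control 2 h. The count therefore follows in part from the choice and is a description. LTI30 and GolS3 were not among the genes the choice was made for. From narciclasine 2 h to 12 h LEA4-1 and GolS1 were higher (7.99% of all genes) and LEA7, ERD10 and GolS3 lower (15.9%). LEA4-1 passed the filter only through narciclasine 12 h, so its place in this count follows in part from the filter. The ratio at 12 h exceeded that at 2 h for 4 genes (LEA4-5, LTI30, GolS1 and GolS2), beside 7.92% of all genes, and fell below it for none (15.8%). Nothing is read from this count, because LEA4-5 and GolS2 were chosen for low ratios at 2 h. For GolS2 that ratio of 7.65 (1.05 to 55.7) rests on 2, 6 and 3 reads in 3 of the libraries.

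The choice of control mattered at 2 h. Against control 12 h, narciclasine 2 h had 1 gene lower, GolS1 (2.28-fold, 1.28 to 4.15), beside 5.84% of all genes. It had 2 genes higher, LTI30 (2.62-fold, 2.52 to 2.73) and GolS3 (2.21-fold, 1.64 to 3.03), beside 6.4%. LEA4-5 was 1.87-fold lower (1.54 to 2.27) and GolS2 3.79-fold lower (0.678 to 38.4), both outside the rule.

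Of 6 other dehydrin genes 4 passed the filter. At 2 h 3 of these 4 were lower, beside 2.06% of all genes, and at 12 h all 4 were, beside 16.5%. The median log2 ratios were -1.62 and -2.86. XERO1 passed the filter only through the control libraries, so its place in these counts and medians follows in part from the filter. RAB18, a dehydrin strongly induced by abscisic acid, had 18.8 RPKM in control 2 h, 6.996 in narciclasine 2 h, 35.5 in control 12 h and 1.87 in narciclasine 12 h. Both narciclasine libraries lay below both controls, 2.75-fold (2.14 to 3.56) at 2 h and 19.6-fold (13.0 to 31.1) at 12 h. AT4G38410, annotated as a dehydrin family protein, had 38.8, 9.44, 4.62 and 0.785 RPKM. It was 4.21-fold lower (3.35 to 5.34) at 2 h and 6.09-fold lower (2.80 to 15.1) at 12 h. XERO1, the neighbour of LTI30 on chromosome 3, rested on 17, 5, 27 and 4 reads and was 8.65-fold lower at 12 h (3.01 to 34.0), opposite to LTI30. HIRD11, a small dehydrin, had 2833, 2004, 3204 and 1337 RPKM, levels like those of COR47. It was 2.48-fold lower at 12 h (2.43 to 2.53) and, at 1.45-fold below control (1.43 to 1.48), was not called at 2 h.

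Of 28 other LEA genes 13 passed the filter, 5 of them lower at 2 h (2.06% of all genes) and none higher (4.74%), with a median log2 ratio of -0.77. AT3G15670 was highest in control 2 h and lowest in narciclasine 12 h, as LEA7 was, with 14.2, 1.79, 1.07 and 0.466 RPKM, and was 8.12-fold lower at 2 h (5.39 to 12.7). DI21, a drought-induced gene, was 2.41-fold lower at 2 h (2.28 to 2.56). AT3G02480 was 2.24-fold lower at 2 h (1.64 to 3.10) and 4.498-fold lower at 12 h (3.21 to 6.41). AT3G17520 rested on 20, 4, 16 and 1 reads and was also lower at both times. It passed the filter only through the control libraries, so its lower calls follow in part from the filter. At 12 h 3 genes were lower (16.5% of all genes) and 2 higher (11.6%), shares near the background, with a median log2 ratio of -0.80. The lower genes were AT3G02480, AT3G17520 and EM6. EM6 had 12 reads in control 12 h and 4 in narciclasine 12 h, and passed the filter only through control 12 h. The higher genes were SAG21, a mitochondrial LEA protein linked to oxidative stress (2.57-fold, 2.47 to 2.67), and AT4G13230 (5.73-fold, 1.72 to 29.9, on 3 control reads). AT4G13230 passed the filter only through narciclasine 12 h, the library in which it was called higher. SAG21 reached 1216 RPKM in narciclasine 12 h against 326.8 in control 2 h. The seed genes EM1 and EM6 had at most 12 reads in any library.

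**Figure D4:**
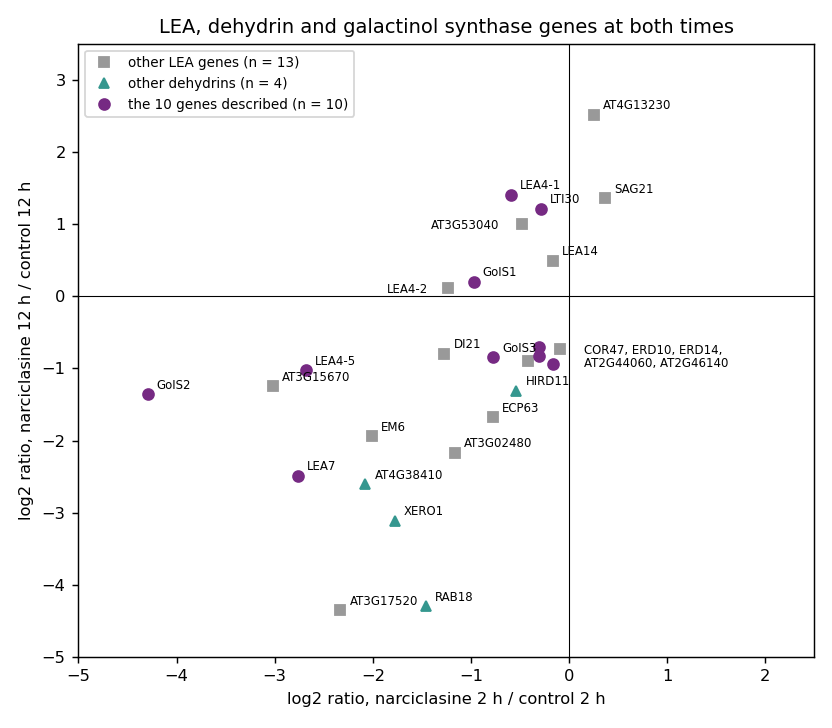
Log2 ratio of narciclasine to control at 2 h (x axis) and at 12 h (y axis) for the 10 genes, other dehydrins and other LEA genes that passed the filter. The 2 axes share no library. LEA7 and RAB18 lie low on both axes. LTI30 lies above 0 on the y axis alone, as do LEA4-1, GolS1 and some of the other LEA genes, such as LEA14.

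Of 7 other galactinol synthase genes 3 passed the filter, with median log2 ratios of -1.01 at 2 h and -0.36 at 12 h. Each median of 3 genes is the value of 1 gene. At 2 h it was GolS9, on 6 control and 3 narciclasine reads, and at 12 h GolS4, on 2 reads in each library. Nothing is read from these medians. The most abundant of the 3 genes was GolS8, which the annotation names GATL10. GolS8 had 17.6, 23.8, 24.1 and 15.7 RPKM and was not called in either narciclasine comparison. GolS4 was 2.58-fold lower at 2 h (1.03 to 7.32) on 18 and 7 reads. GolS9, which the annotation names GATL4, was 3.51-fold higher at 12 h (1.16 to 14.3) on 18 and 4 reads. GolS4 passed the filter only through control 2 h and GolS9 only through narciclasine 12 h. Both calls therefore lean on the library that admitted the gene. Of 16 genes that supply, extend or break down raffinose sugars, 15 passed the filter. At 2 h 2 of these were higher (4.74% of all genes) and none lower (2.06%), with a median log2 ratio of -0.23. At 12 h 1 was higher (11.6% of all genes) and 6 lower (16.5%), with a median of -0.71. RS6, also called DIN10, had 41.0 RPKM in control 2 h, 128.0 in narciclasine 2 h, 44.9 in control 12 h and 42.1 in narciclasine 12 h. Only narciclasine 2 h was high, 3.04-fold above its control (2.88 to 3.22). RS2 was higher at both times, 2.31-fold at 2 h (2.16 to 2.46) and 2.15-fold at 12 h (1.99 to 2.33). The inositol phosphate synthases MIPS1, MIPS2 and MIPS3, which make the precursor of myo-inositol, were lower at 12 h by 3.503-fold (2.98 to 4.13), 3.76-fold (2.71 to 5.32) and 3.497-fold (2.77 to 4.44). AGAL2, an alpha-galactosidase, was 6.04-fold lower at 12 h (4.38 to 8.498).

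Of 19 known regulators of these families 18 passed the filter. At 2 h 2 were higher (4.74% of all genes) and 3 lower (2.06%), with a median log2 ratio of -0.23. At 12 h 3 were higher (11.6%) and 3 lower (16.5%), shares near the background, with a median of 0.00. HSFA2, a heat shock factor that activates galactinol synthase genes, had 30.1 RPKM in control 2 h, 1.70 in narciclasine 2 h, 6.64 in control 12 h and 2.56 in narciclasine 12 h. Control 2 h was the highest library, as for LEA7 and LEA4-5, and narciclasine 2 h was 18.2-fold below it (12.9 to 26.5). At 12 h HSFA2 was 2.68-fold below its control (1.92 to 3.80). HSFA3, another heat shock factor, was 6.97-fold higher at 2 h (3.14 to 18.2) and 3.23-fold higher at 12 h (2.01 to 5.40). DREB2B, a factor of the drought response, was 13.3-fold higher at 12 h (8.68 to 21.6). ABI5, a bZIP factor of abscisic acid signalling that activates LEA genes in seeds, had 1.60, 1.51, 1.47 and 11.5 RPKM and was 7.55-fold higher at 12 h (5.17 to 11.4). CBF2, a cold response factor, was 4.02-fold lower at 2 h (2.26 to 7.62) and 4.11-fold higher in control 12 h than in control 2 h (3.06 to 5.58). CBF2 was also lower with narciclasine at 12 h, at 7.84 RPKM against 17.5 in control 12 h.

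**Figure D5:**
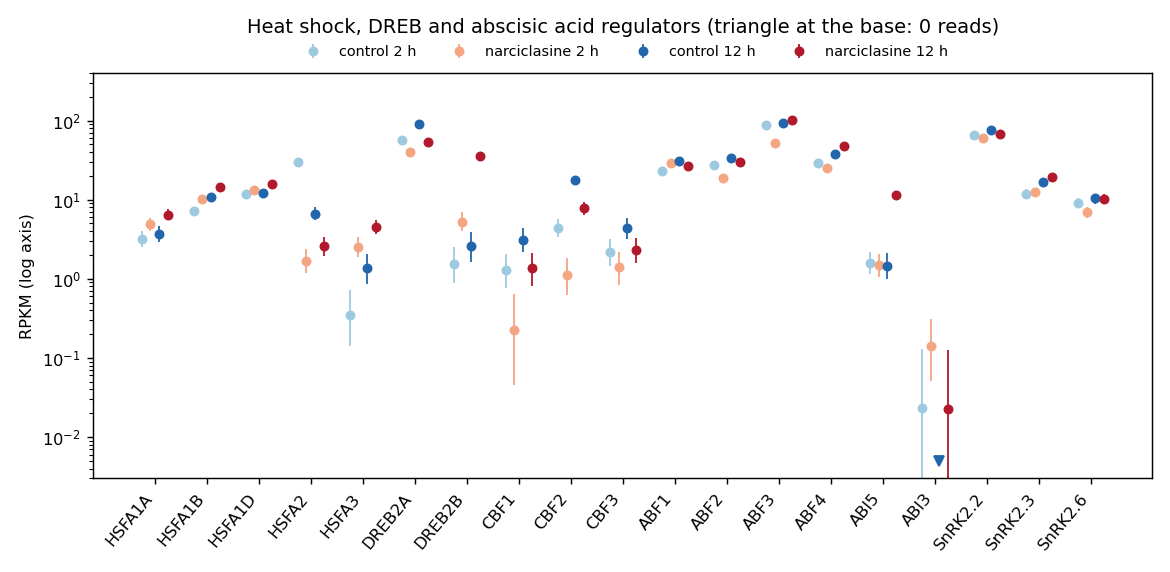
Level of 19 regulators in each library, in RPKM on a log axis, with exact 95% counting intervals. HSFA2 is highest in control 2 h, at 30.1 RPKM, and ABI5 is highest in narciclasine 12 h, at 11.5 RPKM.

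Genes with the most similar pattern over the 4 libraries were found among 17381 genes with a mean of at least 2 CPM. Likeness was the root mean square distance between log2 values of CPM plus 0.5, centred over the 4 libraries, and is a description. The genes nearest to LEA7 were AT5G48570, a peptidyl-prolyl isomerase also called ROF2 (distance 0.245), AT1G54050, an HSP20-like chaperone (0.440), and the expansin gene EXP3 (0.451). AT1G54050 (0.279), the nucleotide sugar transporter gene UTR3 (0.304) and AT4G29520 (0.325) were nearest to LEA4-5. AT1G54050 had 15.7, 1.96, 3.71 and 0.799 RPKM. No neighbours are given for GolS2, whose 2, 6 and 3 reads in 3 libraries leave its pattern on this scale to the added 0.5. For GolS1 the nearest were ATH13 (0.0510), SNI1 (0.0534) and AT2G18560 (0.0544). GolS1 had only 20 to 53 reads per library, and the distances take no account of the error of counting.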

How the data were processed

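RNA-seq libraries of root tips, 1 per group, were sequenced by the authors. The deposited values are RPKM, computed by the authors before deposit, per the file headers. Bowtie 0.12.2 and edgeR are named in the submitters' processing notes, with mm8 as the build. This mouse build is at odds with the Arabidopsis identifiers, and the build the authors used is therefore unclear. Whether strand was used, the annotation and the counting rule are unknown.

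Library sizes came from the commonest ratio of RPKM between libraries and from exon lengths of genes with 1 annotated transcript in TAIR10.1, of which 2093 of 12086 matched exactly. Whole reads (within 1e-06) were then recovered for 22816 of 22816 genes above 0 in at least 2 libraries, up to a common factor per gene. The 1580 genes with a value in a single library could not be recovered and were not compared. Reads were scaled by TMM, with 30% of log ratios and 5% of mean levels trimmed. Intervals are exact (Clopper-Pearson on the share of reads), or normal for a ratio of ratios. List medians place a gene with 0 reads in 1 library at a floor of 3 reads. The steps were tested on simulated data.

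The genes and lists were chosen with earlier results of these data known. From each list up to 4 called genes per comparison were eligible to be named, those with the interval bound farthest from 1 first. EM1 and GolS8 were added after their values were seen. The neighbours of GolS2, which the rule also asked for, were left out because of its few reads. Positions and windows come from the TAIR10.1 annotation, not from the authors' files. The tools were scipy 1.17.1, numpy 2.4.6, pandas 2.3.3, Python 3.11.15 and, for figures, matplotlib 3.10.9.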

Additional observations from a re-analysis of the deposited data

Results flagged for a closer look

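LTI30 was flagged because its narciclasine ratio pointed in opposite directions at the 2 times. It was 1.22-fold lower at 2 h (1.19 to 1.25) and 2.32-fold higher at 12 h (2.23 to 2.41), and the 12 h ratio was 2.83 times the 2 h ratio. With 1 library per group the difference between the times was not tested against replicate error.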

How the results depend on the processing

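No paired analysis was possible because each group held 1 library and the labels give no replicate numbers. LTI30 at 12 h reversed to a log2 ratio of -0.47 against control 2 h. The 12 h count of lower genes (2) was 1 with total-read scaling, median of ratios or deposited RPKM ratios, and 1 at 4-fold or with an interval wholly beyond 2-fold. It was 6 at 1.5-fold and 5 against control 2 h or both controls. The 12 h count of higher genes (1) was 0 at 4-fold. The 2 h count of lower genes (3) was 5 at 1.5-fold and 1 against control 12 h, with 2 higher instead of 0. Between controls the 5 lower genes became 2 at 4-fold. From narciclasine 2 h to 12 h, the 2 higher genes became 0 under a 5 CPM filter or with an interval wholly beyond 2-fold, and 1 at 4-fold, where the 3 lower genes became 0. The 4 genes with a larger ratio at 12 h than at 2 h became 2 under a 5 CPM filter or the stricter interval, and 1 at 4-fold. Beyond the settings' own construction, the cause of these changes was not tested. Of the values of single genes under the alternatives, 380 stayed within the counting interval and 87 moved beyond it. Settings that change only the filter or the call rule leave a ratio as it was, so their values are among the 380 by construction. LTI30 at 12 h was the 1 value counted as reversed. Signs also changed among the 87. Against control 12 h, the 2 h log2 ratio went from -0.29 to 1.39 for LTI30. It went from -0.31 to 0.52 for ERD10 and from -0.78 to 1.15 for GolS3. Depth limits LEA4-1 and GolS2 most, with at most 17 and 39 reads in any library.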
